A study of Mus musculus with 6 samples.

Results

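The genes that carry a Wnt signal across a cell's surface were read in synovial fibroblasts (SFs), the connective tissue cells of the joint lining, with and without the antipsychotic drug amisulpride. The set held every row of the gene table named as a Wnt ligand (Wnt), a Frizzled receptor (Fzd), an R-spondin (Rspo1 to Rspo4), an R-spondin receptor (Lgr4, Lgr5 and Lgr6), an LDL receptor-related co-receptor (Lrp5 and Lrp6) or a Ror receptor (Ror1 and Ror2). It came to 40 of 49548 genes, of which 19 were Wnt ligands, 10 Frizzled receptors, 4 R-spondins, 3 Lgr receptors, 2 Lrp co-receptors and 2 Ror receptors. The rule reads gene names and uses no measured value.

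The cells were primary SFs taken from ankles of hTNFtg mice, CBA C57BL/6J animals aged 8 weeks in which a transgene for human TNF causes arthritis. CD45+ cells (leukocytes) had been depleted at passage 1, and all 6 libraries carry the transgene, so no wild-type cells enter the comparison. The labels give 3 libraries without treatment, called untreated here, and 3 libraries from cells given amisulpride, which the study's methods put at 500 μM for 48 hours. The controls are labelled as having no treatment, although a vehicle appears in the methods, which also call the 3 cultures of each group biological replicates. RNA was read with a kit that primes at the 3′ end of transcripts (QuantSeq), so a gene's reads come from near its end and their number is not expected to grow with gene length. Values are normalized counts, which are reads divided by 1 factor per library and rounded by the authors. The libraries held an estimated 2.52 M to 4.71 M reads. A floor of 3 reads, chosen for calling a gene present, was worth 2.5 to 5.37 normalized counts. Amisulpride replicate 3 was the shallowest and stood apart on the first principal component of the tested genes, at 73.9 against −38.2 to 10.4 in the other 5 libraries.

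Wnt proteins are secreted, lipid-modified signals that bind a Frizzled receptor together with a co-receptor. With Lrp5 or Lrp6 as the partner, the signal stabilizes beta-catenin, whereas Ror1 and Ror2 serve routes that steer cell shape and movement without it. R-spondins are secreted amplifiers. They bind Lgr4, Lgr5 or Lgr6 and remove the ubiquitin ligases Rnf43 and Znrf3, which otherwise take Frizzled receptors off the membrane. In the joint, Wnt signals are known for roles in cartilage and bone formation and in the behavior of synovial fibroblasts in arthritis.

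SFs of both groups held transcripts of every class of receptor, of R-spondins and of some of the Wnt ligands. A gene was called present when it was above the worth of 3 reads in at least 2 libraries of a group. This held for 24 of the 40 genes: 8 of 19 Wnt ligands, 7 of 10 Frizzled receptors, 2 of 4 R-spondins and all of the Lgr, Lrp and Ror receptors. Another 9 had reads in some libraries but not above that limit in 2 of a group, and 7 were at 0 in all 6 libraries. All 7 were ligands, namely Wnt1, Wnt3, Wnt3a, Wnt7a, Wnt8a, Wnt8b and Wnt9b, and a low level of their transcripts could be missed at this depth.

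**Figure D1:**
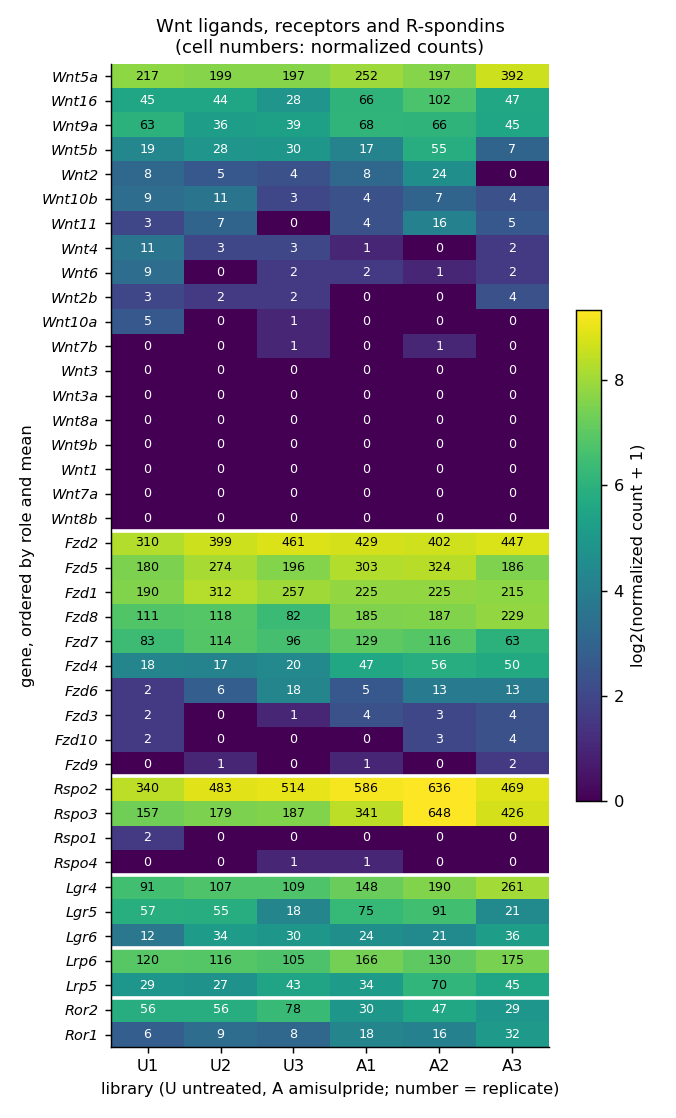
Normalized counts of all 40 genes (rows, by role and then by mean) in the 3 untreated (U1 to U3) and 3 amisulpride (A1 to A3) libraries (columns); the color gives log2(normalized count + 1) and white lines part the roles. Rspo2, Fzd2, Rspo3, Fzd1, Fzd5 and Wnt5a hold the brightest rows, and 7 ligands are at 0 throughout.

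A test was run on the 20 genes that had at least 10 normalized counts in at least 3 of the 6 libraries, 4 ligands and 16 receptors or R-spondins. Rspo3, Fzd4 and Ror1 rose past the study's thresholds, a change of 1 or more on the log2 scale at an unadjusted p under 0.05, and no gene fell past them. Over all 12614 genes tested, 2.69% rose and 3.01% fell past these thresholds. With p-values adjusted by Benjamini-Hochberg over all genes tested (limma), 0 of the 20 had an adjusted p under 0.05, against 0.285% of all genes. The labels number the replicates and state no pairing, although same-numbered libraries deviated together. With the replicate number as a block, 1 of the 20 (Rspo3) had an adjusted p under 0.05, against 2.08% of all genes. Without the block, 7 of the 20 had an unadjusted p under 0.05, against 10.9% of all genes. The 3 amisulpride libraries lay entirely above the 3 untreated ones in 7 of the 20 genes (7.80% of all genes) and entirely below in 1 (8.66% of all genes). Within the numbered pairs, 10 of the 20 genes were higher with amisulpride in all 3, against 16.9% of all genes, and 1 was lower in all 3, against 17.8%. Ror1 is included in the counts of higher genes and of unadjusted p under 0.05. It was under the filter's minimum in every untreated library, so it could be tested only if it was higher with amisulpride.

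The direction was unequal among the tested genes: 17 of 20 had a log2 fold change above 0, or 85.0%, against 50.1% of all genes tested. Their median was 0.42, with a range from −0.84 to 1.43, against 0.00 over all genes tested. For 7 of the 20 the sign turned under at least 1 alternative setting, none of them past the thresholds with all 6 libraries, and for 13 it did not. Ror1 passed the filter through the amisulpride libraries alone, and the median of the 19 genes that passed through both groups was 0.40. These 20 are the members with enough reads, not the whole set. As the libraries are bulk, a change in the number of cells that use a gene and a change in RNA per cell cannot be told apart.

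**Figure D2:**
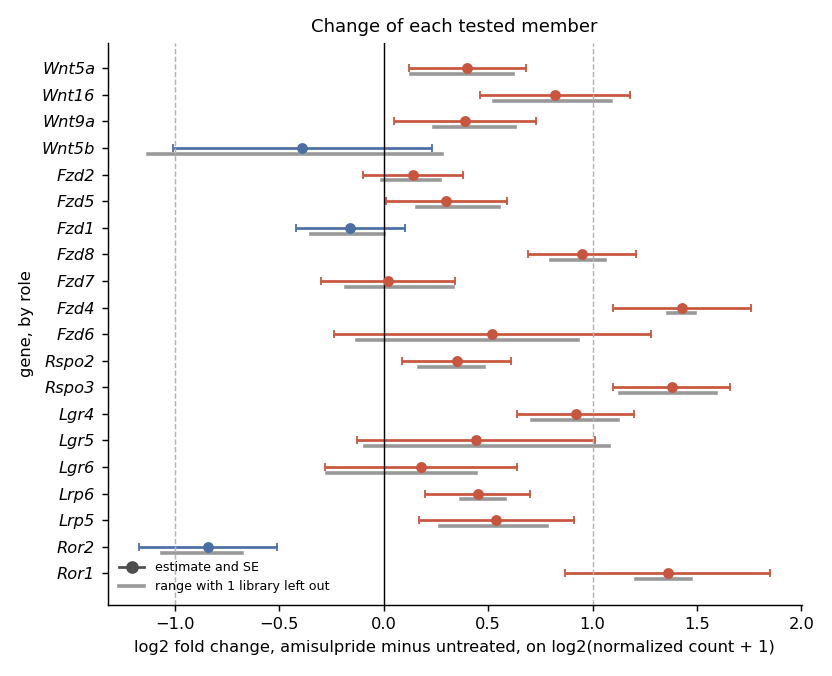
Log2 fold change (amisulpride minus untreated, on log2(normalized count + 1)) of the 20 tested genes, by role, with its standard error; grey bars give the range when 1 library is left out, and dashed lines mark the study's threshold of 1. Fzd4 (1.43), Rspo3 (1.38) and Ror1 (1.36) lie beyond the threshold, and Ror2 (−0.84) is the lowest.

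Among the R-spondins, Rspo3 rose. The gene (ENSMUSG00000019880, build mm10, chromosome 10, 29452416 to 29535867, minus strand) encodes a secreted ligand of the Lgr receptors. Untreated replicates 1, 2 and 3 held 157, 179 and 187 normalized counts, and amisulpride replicates 1, 2 and 3 held 341, 648 and 426. The groups did not overlap, and the lowest treated library was above every untreated one. The mean went from 174.3 ± 15.5 to 471.7 ± 158.5 (SD, n = 3 each), 2.71 times as high. The log2 fold change was 1.38 ± 0.28 (SE, unadjusted p = 0.000391), with an adjusted p of 0.0678 (limma, Benjamini-Hochberg). With the replicate number as a block, the adjusted p of Rspo3 was 0.0091. Without amisulpride replicate 3, the library that stood apart, the log2 fold change was 1.43 and the adjusted p 0.041, and without amisulpride replicate 2, the highest, they were 1.13 and 0.226. In the GENCODE M21 annotation, the exons of Rspo3 share 404 bases with those of Gm48159 on the opposite strand, which is not a row of the table, and whether the counting used strand is not given in the sources used here.

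Rspo2, the relative of Rspo3 that binds the same receptors, held 340, 483 and 514 normalized counts in the untreated and 586, 636 and 469 in the amisulpride libraries. The groups overlapped, since amisulpride replicate 3 lay below 2 of the untreated libraries, and the log2 fold change was 0.35 ± 0.26 (SE). Rspo1 reached 2 normalized counts in 1 untreated library and was at 0 in the other 5, and Rspo4 reached 1 in 1 library of each group. The R-spondin transcripts of these cells were thus nearly all Rspo2 and Rspo3. The share of Rspo3 in the summed R-spondin counts was 28.4% ± 2.7 in the untreated and 44.9% ± 7.2 in the amisulpride libraries (SD, n = 3 each). The authors' gene lengths, 2968 bases for Rspo3 and 2970 for Rspo2, are nearly equal, so the ratio is close to the same per length. That ratio of Rspo3 to Rspo2 was 0.462, 0.371 and 0.364 in the untreated libraries and 0.582, 1.019 and 0.908 in the amisulpride libraries. This ratio and those of other pairs below were chosen after the values were seen and are given without a test.

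**Figure D3:**
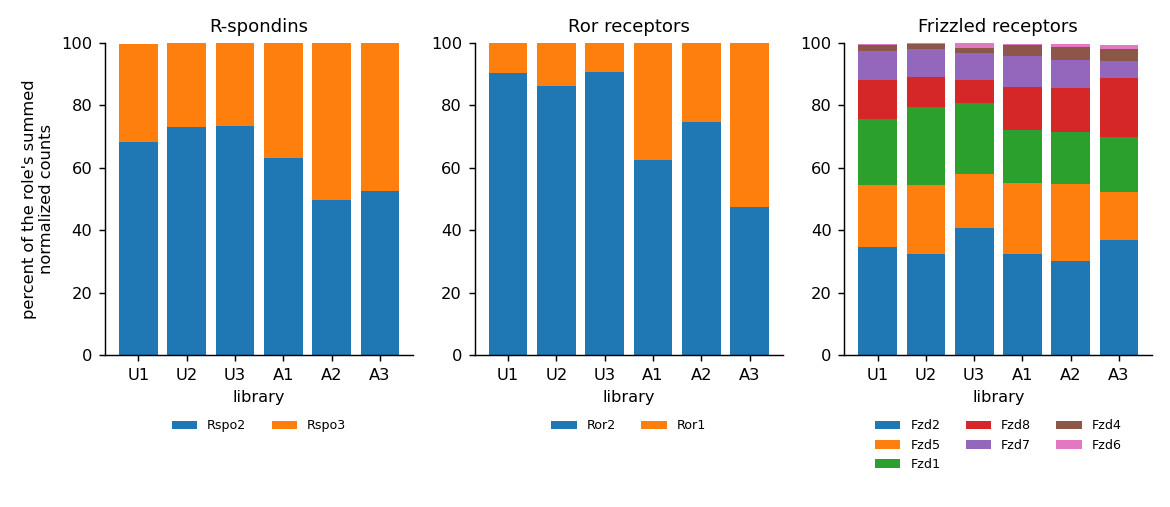
Percent of the summed normalized counts of R-spondins, Ror receptors and Frizzled receptors that each tested gene took in each untreated (U1 to U3) and amisulpride (A1 to A3) library; members that were not tested make up the small rest to 100. The Rspo3 and Ror1 portions are larger in all 3 amisulpride libraries than in any untreated library.

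The R-spondin receptors were all present. Lgr4, the most broadly used of them, held 91, 107 and 109 normalized counts without treatment and 148, 190 and 261 with amisulpride. These groups did not overlap, and the mean was 1.95 times as high, but the log2 fold change of 0.92 ± 0.28 (SE, unadjusted p = 0.00667) stayed under the threshold of 1, with an adjusted p of 0.224 (limma, Benjamini-Hochberg). Without amisulpride replicate 1 it was 1.12, past the threshold. Lgr5, a stem cell marker in epithelia and itself a target of beta-catenin, held 57, 55 and 18 against 75, 91 and 21 normalized counts. Replicate 3 was the lowest of both groups, the groups overlapped, and its log2 fold change was 0.44 ± 0.57 (SE), which became 1.08 and passed the thresholds without amisulpride replicate 3 and was −0.09 without untreated replicate 3. Lgr6 held 12, 34 and 30 against 24, 21 and 36 normalized counts, and its groups overlapped as well.

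The Frizzled receptors were the class with the most reads, between 898 and 1241 normalized counts in sum without treatment and between 1213 and 1329 with amisulpride. Fzd4 rose. It encodes the Frizzled that also serves as the receptor of Norrin in retinal vessels, and its row (ENSMUSG00000049791) covers chromosome 7, 89404355 to 89413134, plus strand. Its values were 18, 17 and 20 normalized counts in the untreated and 47, 56 and 50 in the amisulpride libraries. The groups were far apart against their spread, with means of 18.3 ± 1.5 and 51.0 ± 4.6 (SD, n = 3 each), a ratio of 2.78. The log2 fold change was 1.43 ± 0.33 (SE, unadjusted p = 0.00111), with an adjusted p of 0.103 (limma, Benjamini-Hochberg), or 0.0533 with the replicate block. Leaving out 1 library at a time gave log2 fold changes from 1.36 to 1.49.

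Fzd8 (ENSMUSG00000036904, chromosome 18, 9212856 to 9216201, plus strand) is named after its values were seen, because its groups did not overlap. It held 111, 118 and 82 normalized counts without treatment and 185, 187 and 229 with amisulpride, 1.93 times as high on average. Its log2 fold change of 0.95 ± 0.26 (SE, unadjusted p = 0.00362) lay just under the threshold, and the adjusted p was 0.18 (limma, Benjamini-Hochberg). It passed the threshold without untreated replicate 1 (1.01), untreated replicate 2 (1.06) or amisulpride replicate 1 (1.01). The GENCODE M21 annotation ends this gene 1935 bases farther downstream than the authors' table does, so reads near that end may be absent from its row.

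The 3 Frizzled genes with the most reads overlapped between the groups. Fzd2 held 310, 399 and 461 normalized counts against 429, 402 and 447, and its log2 fold change was 0.14 ± 0.24 (SE). Fzd5 held 180, 274 and 196 against 303, 324 and 186, with amisulpride replicate 3 within the untreated range. Fzd1, with 190, 312 and 257 against 225, 225 and 215 normalized counts, was the only Frizzled with a log2 fold change below 0, at −0.16 ± 0.26 (SE). With Fzd4 and Fzd8 higher and Fzd1 not, the make-up of the summed Frizzled counts shifted: Fzd8 took 9.7% ± 2.6 of them in the untreated and 15.6% ± 2.8 in the amisulpride libraries, Fzd4 1.7% ± 0.3 and 4.0% ± 0.4, and Fzd1 23.0% ± 2.0 and 17.2% ± 0.5 (SD, n = 3 each). None of these 3 shares overlapped between the groups, while those of Fzd2, Fzd5, Fzd7 and Fzd6 did. The 3 were named after their values were seen, and no background share was computed for them. Shares of 1 sum depend on each other, so the lower share of Fzd1, whose own counts overlapped, is not a separate result. The ratio of Fzd8 to Fzd1 was 0.584, 0.378 and 0.319 without treatment and 0.822, 0.831 and 1.065 with it. Among the rest, Fzd7 and Fzd6 were tested, with log2 fold changes of 0.02 ± 0.32 and 0.52 ± 0.76 (SE), and Fzd3, Fzd9 and Fzd10 reached at most 4 normalized counts in any library. Fzd3 held 2, 0 and 1 against 4, 3 and 4, at or under the worth of 3 reads in 5 of the 6 libraries. The annotation runs 8577 bases past the authors' row at the 3′ end of Fzd3, so reads near that end may be absent from its row too, and it runs 1041 bases past that of Wnt10b.

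The Ror receptors, receptor tyrosine kinase-like proteins that bind Wnt5a, had log2 fold changes of opposite sign. Ror1 (ENSMUSG00000035305, chromosome 4, 100095791 to 100444765, plus strand) held 6, 9 and 8 normalized counts in the untreated and 18, 16 and 32 in the amisulpride libraries. Its mean was 7.7 ± 1.5 against 22.0 ± 8.7 (SD, n = 3 each). Its log2 fold change was 1.36 ± 0.49 (SE, unadjusted p = 0.0179), with an adjusted p of 0.314 (limma, Benjamini-Hochberg). Ror1 was under the filter's minimum of 10 in every untreated library, so it had to be higher with amisulpride to be tested at all, and leaving out any amisulpride library took it out of the test. Ror2 (ENSMUSG00000021464, chromosome 13, 53109312 to 53286124, minus strand) held 56, 56 and 78 normalized counts without treatment and 30, 47 and 29 with amisulpride. It was the only tested member with every amisulpride library below the untreated ones, at a log2 fold change of −0.84 ± 0.33 (SE, unadjusted p = 0.026), short of the threshold and with an adjusted p of 0.363 (limma, Benjamini-Hochberg). Without amisulpride replicate 2, the highest of the treated ones, it was −1.06 and passed the thresholds. Ror1 made up 10.9% ± 2.5 of the summed Ror counts in the untreated and 38.5% ± 13.6 in the amisulpride libraries (SD, n = 3 each). The ratio of Ror1 to Ror2 was 0.107, 0.161 and 0.103 without treatment and 0.6, 0.34 and 1.103 with it. The sum of both was 62 to 86 normalized counts in the untreated and 48 to 63 in the amisulpride libraries.

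The Lrp co-receptors, single-pass proteins that relay the signal to Axin, were both present. Lrp6 held 120, 116 and 105 normalized counts against 166, 130 and 175. These groups did not overlap, and the log2 fold change of 0.45 ± 0.25 (SE, unadjusted p = 0.0992) passed no threshold. Lrp5 held 29, 27 and 43 against 34, 70 and 45, with overlapping groups and a log2 fold change of 0.54 ± 0.37 (SE).

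**Figure D4:**
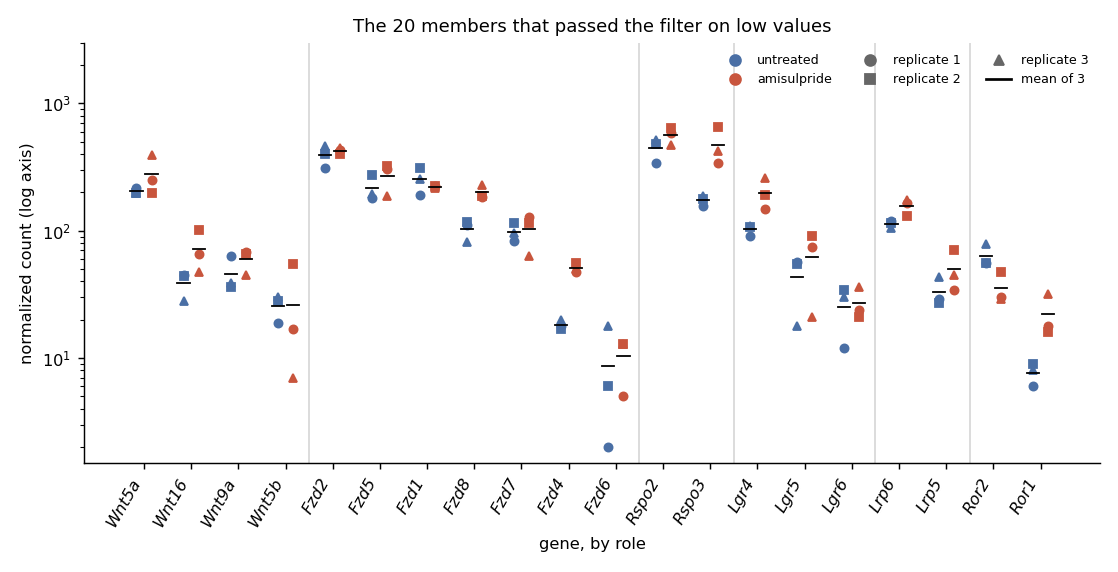
Normalized counts (log axis) of the 20 tested genes, by role, in the 3 untreated (blue) and 3 amisulpride (red) libraries; the marker shape gives the replicate number and the short line the mean of 3. Red points lie wholly above blue ones for Wnt16, Fzd8, Fzd4, Rspo3, Lgr4, Lrp6 and Ror1, and wholly below for Ror2.

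Of the ligands, Wnt5a, the main partner of the Ror receptors, had the most reads. It held 217, 199 and 197 normalized counts in the untreated and 252, 197 and 392 in the amisulpride libraries, with a log2 fold change of 0.40 ± 0.28 (SE). The untreated libraries were close together, and amisulpride replicate 3 alone stood high. Wnt16, a ligand known for its part in cortical bone, held 45, 44 and 28 normalized counts against 66, 102 and 47. Its groups did not overlap, narrowly, and the log2 fold change of 0.82 ± 0.36 (SE, unadjusted p = 0.0438) had an adjusted p of 0.441 (limma, Benjamini-Hochberg). It depended on single libraries, at 1.09 and past the thresholds without amisulpride replicate 3 and 0.53 without amisulpride replicate 2, and it was 1.06 and past them with weights per library. Wnt9a, needed for joint formation in development, held 63, 36 and 39 against 68, 66 and 45 normalized counts, and Wnt5b ranged from 19 to 30 in the untreated and from 7 to 55 in the amisulpride libraries. With all 6 libraries at equal weight no tested ligand passed the thresholds, and the summed ligand counts were 310 to 392 without treatment and 422 to 508 with amisulpride. Wnt5a alone gave 59.4% ± 4.1 of that sum in the untreated and 59.6% ± 17.6 in the amisulpride libraries (SD, n = 3 each).

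The remaining 4 ligands called present were too low to test. Wnt2 held 8, 5 and 4 normalized counts against 8, 24 and 0, Wnt10b 9, 11 and 3 against 4, 7 and 4, and Wnt11 3, 7 and 0 against 4, 16 and 5. Wnt4 held 11, 3 and 3 in the untreated libraries and 1, 0 and 2 in the amisulpride libraries, where it was not above the worth of 3 reads in any, and it fell past the thresholds when no filter was applied (−1.67). Wnt6, Wnt2b, Wnt10a and Wnt7b reached at most 9, 4, 5 and 1 normalized counts. Wnt genes that lie side by side were at 0 or low together in some places and not in others. On chromosome 1, Wnt6 and Wnt10a, 6.2 kb apart, reached 9 and 5 normalized counts. On chromosome 11, Wnt9a reached 68 normalized counts while Wnt3a, 16.2 kb away, was at 0, and the neighbors Wnt9b and Wnt3, 24.3 kb apart, were both at 0. On chromosome 15, Wnt10b reached 11 and Wnt1, 11.7 kb away, was at 0.

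Levels of different genes were set side by side per length, as the authors' table also does by dividing the normalized count by the gene's length. In the untreated libraries the mean normalized count per kilobase was highest for Rspo2 (150.1) and Fzd2 (149.3), followed by Fzd1 (90.0), Rspo3 (58.7) and Fzd8 (46.6). In the amisulpride libraries Rspo2 (189.8), Fzd2 (163.0) and Rspo3 (158.9) came before Fzd8 (90.1) and Fzd1 (78.8). The highest ligand, Wnt5a, stood at 24.7 per kilobase without treatment and 33.8 with amisulpride. This order holds for the scale per length only. The kit reads transcript ends, so division by length lowers long genes such as Wnt5a, with an authors' length of 8287 bases, and Lrp5, with 29207.

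Promoter sequence is shown for Fzd4 and Ror1, 2 of the 3 members that rose, to set their start regions side by side. RefSeq's promoter table (250 bases before to 50 after the start, GRCm38.p6, the build also called mm10) held 27 of the 40 genes, Fzd4 and Ror1 but not Rspo3 among them. Capitals mark GC boxes (GGGCGG) and CCAAT boxes (CCAAT), each on either strand, so that CCGCCC and ATTGG are marked too. The first lies at chr7:89404116-89404415 and the second at chr4:100095541-100095840, both on the plus strand, and each is written 5′ to 3′.
Fzd4: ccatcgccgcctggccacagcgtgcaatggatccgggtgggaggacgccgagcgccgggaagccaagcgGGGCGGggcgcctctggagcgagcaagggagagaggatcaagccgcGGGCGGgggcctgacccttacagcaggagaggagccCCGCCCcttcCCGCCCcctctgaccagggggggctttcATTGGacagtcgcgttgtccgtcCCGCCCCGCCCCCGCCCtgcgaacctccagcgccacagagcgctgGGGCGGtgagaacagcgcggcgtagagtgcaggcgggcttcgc
Ror1: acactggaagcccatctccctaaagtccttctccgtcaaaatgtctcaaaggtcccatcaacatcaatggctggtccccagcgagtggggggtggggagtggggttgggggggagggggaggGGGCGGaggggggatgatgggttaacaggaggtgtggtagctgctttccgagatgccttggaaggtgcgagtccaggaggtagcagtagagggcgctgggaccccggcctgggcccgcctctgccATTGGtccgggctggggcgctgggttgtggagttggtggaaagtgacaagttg

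The Fzd4 window had 72.7% G and C and 32 CpG pairs, against medians of 52.7% and 7 over all 32851 promoters of the table, with 8 GC boxes, some of which share bases, and 1 CCAAT box. The Ror1 window had 62.3% G and C, 10 CpG pairs, 1 GC box and 1 CCAAT box. Neither held a TCF/LEF motif (CTTTG followed by 2 bases that are each A or T), the element that beta-catenin's partners bind, an AP-1 motif (TGANTCA) or TATAAA on either strand. Over all promoters, 35.7% held a GC box, 37.4% a CCAAT box, 16.9% a TCF/LEF motif, 7.8% an AP-1 motif and 13.6% TATAAA. Of the 30 promoters of the 27 genes, 76.7% held a GC box, 36.7% a CCAAT box, 13.3% a TCF/LEF motif, 6.7% an AP-1 motif and 6.7% TATAAA. A match of letters is a description of the window and not a binding site.

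The genes around these ligands and receptors were read from lists of the pathway, beside the same background shares. Over all genes tested, these were 2.69% that rose and 3.01% that fell past the study's thresholds. The list of Wnt secretion and receptor turnover also held other cell surface proteins, such as Reck and Gpc4. Of its 16 genes, 11 were tested and 2 rose past the study's thresholds. Porcn, the enzyme that puts the lipid on Wnt proteins, held 39, 34 and 32 normalized counts against 87, 262 and 54, with a log2 fold change of 1.59 ± 0.48 (SE, unadjusted p = 0.00677). Reck, a membrane-anchored inhibitor of metalloproteinases that also serves as a co-receptor for Wnt7 ligands, held 37, 78 and 56 against 123, 146 and 141, with a log2 fold change of 1.31 ± 0.31 (SE, unadjusted p = 0.0015). Wnt7a itself was at 0, and Wnt7b reached 1 normalized count. The median log2 fold change of the list was 0.35, and 8 of its 11 tested genes were above 0. The list had 1 gene past the thresholds without amisulpride replicate 2, in which Porcn was highest, and 4 without amisulpride replicate 1. With the replicate block the adjusted p was 0.0359 for Porcn and 0.0266 for Reck, and 0.0489 for Gpc4, a heparan sulfate carrier at the cell surface, whose log2 fold change was 0.99 (limma, Benjamini-Hochberg).

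Secreted antagonists, which bind Wnt proteins or their co-receptors, moved in both directions. Of 15 listed genes in the table, 9 were tested, 2 rose and 1 fell past the thresholds, and the median was 0.28. In log2 fold change, 5 were above 0 and 4 below it. At an unadjusted p under 0.05 (limma), 4 were higher and 1 was lower, against 10.9% of all genes in either direction. Sfrp2, a decoy that resembles the Frizzled binding domain, held 343, 666 and 215 normalized counts against 1175, 2534 and 1253. Every amisulpride library was above the untreated ones, and the log2 fold change was 2.08 ± 0.41 (SE, unadjusted p = 0.000352), with an adjusted p of 0.0652 (limma, Benjamini-Hochberg), or 0.000527 with the replicate block. Sfrp4, of the same family, rose from 5, 2 and 4 to 17, 21 and 11 normalized counts, with a log2 fold change of 1.91 ± 0.60 (SE, unadjusted p = 0.00877). It was under the filter's minimum in all untreated libraries, as Ror1 was. Frzb, also of that family, fell from 59, 44 and 62 to 35, 24 and 5, with a log2 fold change of −1.66 ± 0.58 (SE, unadjusted p = 0.0149). Without amisulpride replicate 3, in which Frzb was lowest, the list had 1 gene past the thresholds.

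**Figure D5:**
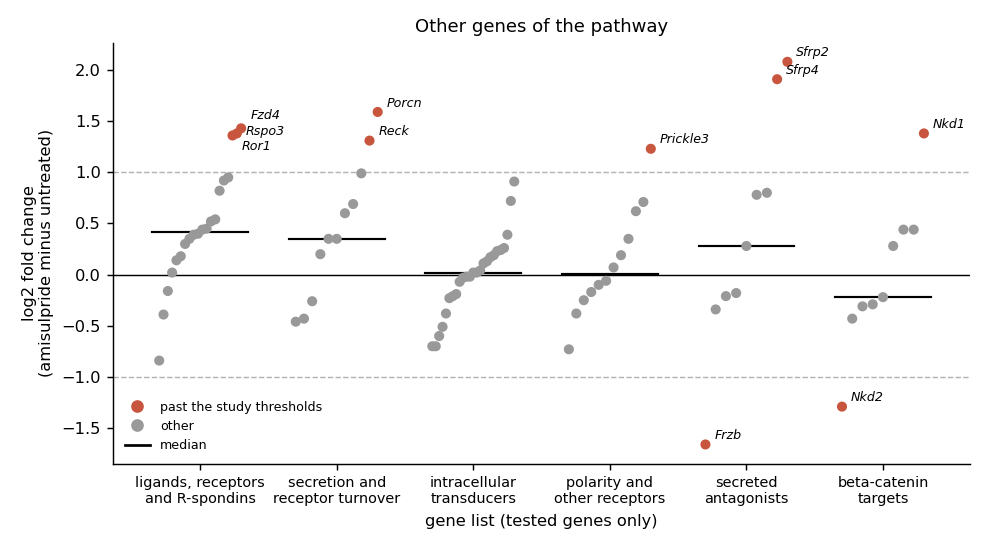
Log2 fold change (amisulpride minus untreated) of the tested genes of each list, with genes past the study's thresholds in red and named, the median as a black line, and dashed lines at 1 and −1. Medians are 0.42 for the ligands, receptors and R-spondins, 0.35 for secretion and receptor turnover, 0.28 for secreted antagonists, and between −0.22 and 0.02 for the other 3 lists.

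Of the 25 tested intracellular transducers, 0 passed the thresholds, while over all genes tested 2.69% rose and 3.01% fell past them. A list of this size is too short to tell 0 from such shares. The median of the transducers was 0.02, and 1 had an unadjusted p under 0.05 in each direction. Ctnnb1, which encodes beta-catenin and was named after its values were seen, ranged from 2844 to 3900 normalized counts in the untreated and from 3764 to 4059 in the amisulpride libraries. Among 12 tested receptors and polarity genes outside the beta-catenin route, 1 rose, Prickle3, with 15, 6 and 8 against 14, 35 and 23 normalized counts, overlapping groups and a log2 fold change of 1.23 ± 0.52 (SE, unadjusted p = 0.0384). Of that list, 0 genes passed without replicate 2 or 3 of either group. The common targets of beta-catenin had 9 tested genes of 17 in the table and a median of −0.22, and 1 moved each way. These were Nkd1 and Nkd2, paired feedback inhibitors that bind Dishevelled. Nkd1 held 5, 9 and 13 against 18, 24 and 30 normalized counts (log2 fold change 1.38 ± 0.49, SE, unadjusted p = 0.0173), and Nkd2 held 192, 121 and 81 against 65, 60 and 32 (−1.29 ± 0.38, SE, unadjusted p = 0.00604). With the replicate block, the adjusted p of Nkd2 was 0.028 (limma, Benjamini-Hochberg). Leaving out untreated replicate 1 left 0 targets past the thresholds, and leaving out amisulpride replicate 3 left 1. Axin2, a target used in most tissues and named here after its values were seen, held 2, 5 and 2 against 4, 3 and 0 normalized counts, near or under the worth of 3 reads in both groups. Without the block, 0 genes of the 5 lists had an adjusted p under 0.05 (limma, Benjamini-Hochberg). An unadjusted p under 0.05 (limma) was found for 5 of 11 tested genes of the secretion list, 2 of 25 transducers and 1 of 12 polarity genes. It was also found for 5 of 9 antagonists and 2 of 9 targets, against 10.9% of all genes tested. The 5 antagonists include Sfrp4, which was under the filter's minimum in every untreated library. Like Ror1, it could be tested only if it was higher with amisulpride.

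Marker genes were read beside these results. All 11 fibroblast markers were tested, and their sum was 44479 to 59212 normalized counts without treatment and 51095 to 90993 with amisulpride, none past the thresholds. Of the 11, 7 had a log2 fold change above 0 and 4 below it, with a median of 0.21. Prg4 alone had an unadjusted p under 0.05 (limma), which 10.9% of all genes tested had. It encodes the lubricant of the lining layer and held 915, 859 and 733 against 426, 304 and 653 normalized counts, without overlap. Its log2 fold change was −0.92 ± 0.29 (SE, unadjusted p = 0.00924). Cd55, also listed and named after its values were seen, held 41, 92 and 20 against 64, 87 and 20 normalized counts. Its groups overlapped, and its log2 fold change was 0.18 ± 0.60 (SE). The 9 leukocyte and macrophage markers summed to 2337 to 3951 against 2105 to 4001, mostly Lyz2 at 1394 to 3287. Such RNA was thus present in both groups after the CD45 depletion. In log2 fold change, 7 of these markers were below 0 and 2 above it, Adgre1 (0.83) and Cd68 (0.31). Csf1r (−1.01, with overlapping groups) and Cd14 (−1.75, without overlap) fell past the thresholds. The 5 mural markers summed to 250 to 398 against 189 to 266, and Mcam fell by 1.36 on the log2 scale, while the 4 glial markers summed to 45 to 80 over all libraries, and Mbp fell by 1.10. Sums were at most 17 for 6 endothelial markers, with Cdh5 at 0, 9 for 4 osteoblast markers, 10 for 5 epithelial markers, with Krt5, Krt14 and Krt8 at 0, and 2 for 3 adipocyte markers, with Adipoq at 0. The 5 muscle markers summed to 8 to 44, mostly Acta1, with Myod1 and Pax7 at 0, and the 6 chondrocyte markers to 246 to 562, nearly all Sox9, with Matn1 at 0. The part of leukocyte, mural and glial RNA, and of the lower Prg4, in the results above was not tested.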

How the data were processed

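Three-prime RNA-seq (QuantSeq, Ion Proton) of hTNFtg SFs was used, 3 libraries a group, grouped by the labels. The authors mapped reads to mm10 with TopHat2 and, for the remainder, Bowtie2, counted them per gene with GenomicRanges and normalized them with DESeq through metaseqR; versions are not given in the sources used here. The deposited values are a score, namely counts divided by 1 factor per library and rounded, and a second score divides them by gene length. The worth of 1 read per library was estimated from the steps of the values, and it is uncertain for untreated replicate 1. The 6 log2 columns and the authors' own p-values, adjusted p-values and fold changes, which the same table holds, were not used.

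Log2(normalized count + 1) was tested with limma 3.58.1 in R 4.3.3 (trended moderation, two-sided), which was also tested on simulated data, with Benjamini-Hochberg adjustment over the 12614 of 49548 genes with at least 10 in at least 3 of 6 libraries. The values are not raw counts, so no count model was fitted. An exact permutation test of 3 against 3 cannot go below p = 0.1. Same-numbered libraries deviated together (correlations of 0.201 to 0.24 over genes, against −0.149 to −0.078 for other pairs), so the replicate block is given where it changes a call. The deviations are from each group's mean of 3 and sum to 0. The negative values are therefore tied to the positive ones and are not separate evidence of a pairing. The members and lists were chosen with earlier results of these data known. Full values are given for members past the study's thresholds and for the 3 tested members of each role with the highest mean, and of the lists only genes past the thresholds are named, with exceptions stated. Alternatives were 2 pseudocounts, 2 filters, 2 scalings, library weights, moderation without a trend, the block, and leaving out each library.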

Additional observations from a re-analysis of the deposited data

How the results depend on the processing

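Results were recomputed under 15 alternatives, 6 of which leave out 1 library. Rspo3 and Fzd4 stayed past the study's thresholds in all 15, with log2 fold changes of 1.13 to 1.59 and 1.26 to 1.49. Ror1 did so wherever it was tested (1.05 to 1.47), and it was not tested with a filter of 20 or without any amisulpride library. The number of members past the thresholds went from 2 to 4, where Fzd8, Lgr4, Lgr5, Ror2 or Wnt16 passed with a library left out, Wnt16 also with weights, and Wnt4 without a filter. The median log2 fold change of all tested members went from 0.287 to 0.515. Members with an adjusted p under 0.05 numbered 0, but 2 with weights per library (Rspo3 and Fzd4), 1 with the replicate block (Rspo3), and 0 to 1 with a library left out. The count over all genes at that level, 36, became 57 at a pseudocount of 5, also 57 with no filter, 66 after quantile normalization, 195 with weights, 263 with the replicate block, and 0 to 120 with a library left out, where 120 came without amisulpride replicate 3. With the block, Porcn, Reck, Gpc4, Sfrp2 and Nkd2 of the lists also had an adjusted p under 0.05, and it changed no call by the study's thresholds among members and list genes. Past the study's thresholds there were 719 genes, and 1313 without a filter, where more genes are tested.

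Of the lists, polarity genes went from 1 to 0 with a pseudocount of 5 and with the stricter filter (0 to 1 with a library left out), beta-catenin targets from 2 to 1 with the stricter filter and to 1 with weights (0 to 2), and transducers from 0 to 1 without a filter (0 to 1). Leaving out a library gave 1 to 4 for antagonists and 1 to 4 for the secretion list, whose main counts were 3 and 2. Directions reversed for 7 members that passed no threshold with all 6 libraries, and not for the other 13. Lgr6 was −0.15 with weights. With a library left out, log2 fold changes ranged from −0.27 to 0.44 for Lgr6, −0.09 to 1.08 for Lgr5, −0.13 to 0.93 for Fzd6, −1.13 to 0.28 for Wnt5b, −0.18 to 0.33 for Fzd7, −0.35 to 0.00 for Fzd1 and −0.01 to 0.27 for Fzd2. The cause was not tested. Depth limits genes under about 10 normalized counts, among them 20 of the 40 members.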
